A study of Homo sapiens with 6 samples.

Results

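The genes of the NF-kB pathway were examined in KMM1, an established human multiple myeloma line, after lentiviral expression of TAZ, the Hippo pathway co-activator encoded by WWTR1. The 35 genes are a chosen list of Rel subunits, their inhibitors, kinases, adaptors and induced products, matched by gene name among 57290 annotated genes, and all 35 were found under 1 gene identifier each. Polyadenylated RNA came from 3 libraries of cells transduced with lentivirus expressing TAZ and 3 libraries of cells transduced with the empty vector WPI, all collected 4 days after transduction. All 6 libraries therefore share the cell line, the lentiviral infection and the time point, and differ in the insert. Whether they are separate transductions of this 1 line is not stated, and the spread behind each p-value may be technical. Sequencing on an Ion Torrent Proton put 2 libraries on a chip, and the labels do not say which shared one, so an effect of the chip was not tested.

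NF-kB is a family of dimeric transcription factors that are held in the cytoplasm by IkB proteins. Receptors of the TNF family and antigen receptors act through TRAF adaptors or the adaptors BCL10 and MALT1 on the IkB kinases, which free the dimers, while NIK drives a second, non-canonical arm through NFKB2 and RELB. Activated NF-kB induces its own inhibitors and several of its own subunits, so the abundance of those transcripts is commonly used as a readout of activity, and mutations in this pathway are frequent in myeloma.

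Values are TPM, a length-corrected share of all transcripts in a library, scaled between libraries, given as mean ± SD with n = 3 libraries per group unless each library is named. Differences are on the log2(scaled TPM + 1) scale, TAZ minus empty vector, ± SE, which understates changes of genes with low TPM. The deposited libraries held 1130.4 to 1608 megabases of aligned sequence for TAZ and 1099.95 to 2033 for the empty vector. WWTR1 averaged 216 ± 129 scaled TPM in TAZ libraries and 1.65 ± 0.609 in empty vector libraries (limma log2 difference 6.22 ± 0.41, adjusted p = 8.35e-04). It was at 365, 138 and 145 in TAZ libraries 1, 2 and 3, so the level of the transgene was uneven among them. Empty vector library 3 stood apart on the second principal component, at 74.8 against -37.6 and -3.70 for the other empty vector libraries. On the first component empty vector libraries 1, 2 and 3 lay at 69.7, 43.6 and 15.0, and TAZ libraries between -50.8 and -29.9. Correlations between libraries were 0.897 to 0.939 within the empty vector group, 0.935 to 0.948 within the TAZ group and 0.878 to 0.918 across groups. In bulk RNA, fewer cells of a type and less RNA per cell cannot be told apart. The summed level of 10 plasma cell and myeloma markers was 2857 to 3252 scaled TPM in TAZ libraries and 2442 to 3161 in empty vector libraries, but this sum is mostly JCHAIN (1841 ± 253 in TAZ libraries and 1147 ± 88.3 in empty vector libraries) and XBP1. Over the list 8 of 10 had a log2 difference below 0, with a median of -0.63, and SDC1, SLAMF7 and IRF4 fell (3 of 10, against 0.964% of all tested genes). SDC1, the plasma cell surface protein CD138, had 72.6 ± 7.05 in TAZ libraries and 197 ± 9.97 in empty vector libraries. That of 5 T and NK cell markers was 0.535 to 0.862 in TAZ libraries and 0.541 to 1.22 in empty vector libraries, with NKG7 listed at 0 throughout. That of 4 myeloid markers was 1.47 to 1.90 and 3.45 to 5.24 in TAZ and empty vector libraries, nearly all of it CD14. That of 5 stromal and epithelial markers was 879 to 2237 in TAZ libraries and 121 to 213 in empty vector libraries. The simple keratins KRT8 and KRT18 rose. The collagen COL1A1 had 1.73 ± 0.220 scaled TPM in TAZ libraries and 1.79 ± 0.320 in empty vector libraries. The collagens COL1A2 and COL3A1 were below 1 in every library and not tested, but higher in every TAZ library. COL1A2 had 0.775 ± 0.222 in TAZ libraries and 0.0699 ± 0.0586 in empty vector libraries, and COL3A1 0.396 ± 0.0721 and 0.0512 ± 0.00726. The part of these markers in the results below was not tested.

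None of the 32 NF-kB genes abundant enough to be tested passed the threshold in either direction (limma, adjusted p below 0.05 over 19390 genes), against 3.21% of all tested genes (2.25% higher and 0.964% lower). At an unadjusted p below 0.05 there were 10 of 32, against 18.0% of all tested genes. In 11 of 32 (34.4%) the 3 TAZ values and the 3 empty vector values did not overlap, 5 with TAZ above and 6 with TAZ below, against 24.9% of all tested genes (10.1% above and 14.8% below). The smallest adjusted p was 0.0541, for BCL10. REL, CCL20 and CCL22 were under the minimum mean of 1 TPM and were not tested. Without empty vector library 3, again 0 members passed and 14 did not overlap, against 45.6% of all tested genes in that smaller set.

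**Figure D1:**
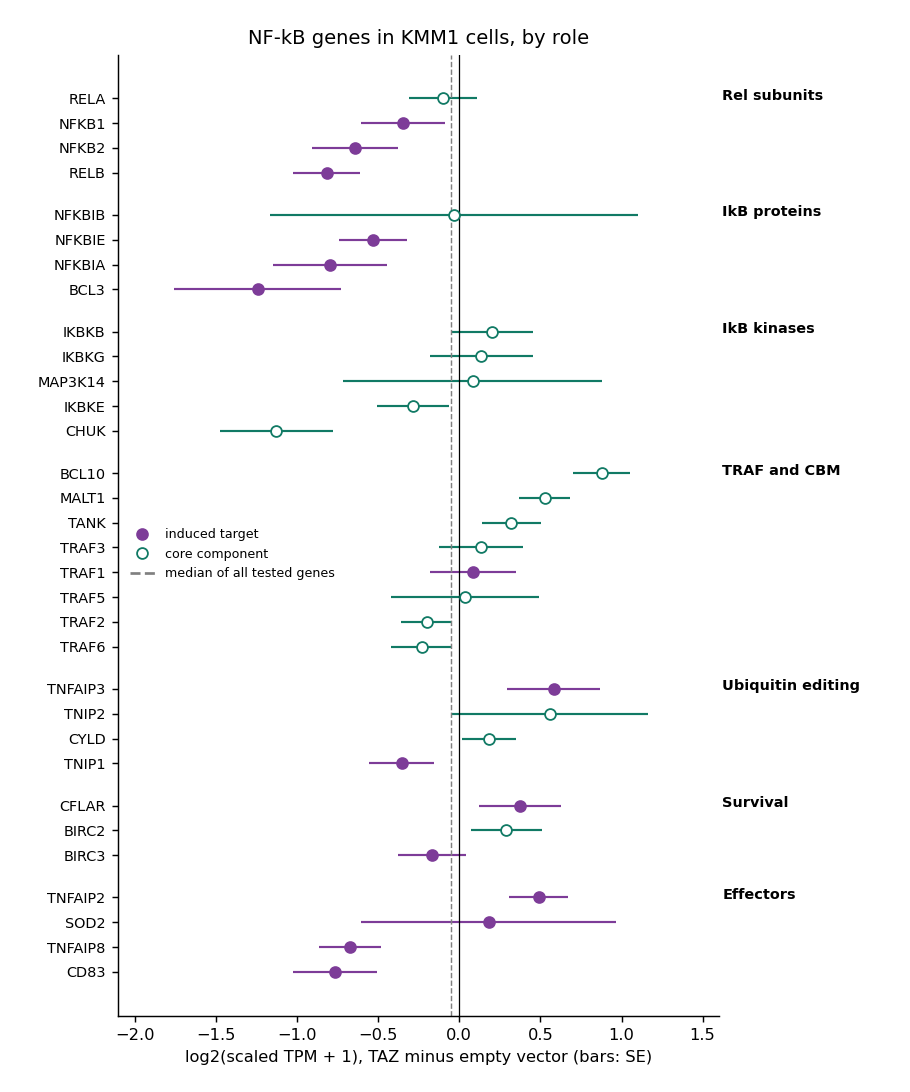
Log2 difference of scaled TPM + 1 between TAZ and empty vector libraries for the 32 tested NF-kB genes (points, bars are SE), grouped by role, with induced targets filled, core components open, and the median of all tested genes dashed. The Rel subunits and IkB proteins all lie at or left of 0, and BCL10 and MALT1 lie farthest right among the adaptors.

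The promoters were searched for sequence matches to the NF-kB consensus next to the gene start, and binding was not measured. Windows of 250 bases before the RefSeq start (build GRCh38.p14) were given for 32 of the 35 genes, and RELB, NFKBIE and IKBKB had none. Both strands were searched for the NF-kB consensus and for a stricter form contained in it, GGGANNTTCC. At least 1 window of 10 of 32 members held the stricter form (31.3%), against 1.73% of all genes, and 15 held the consensus (46.9%), against 11.8% of all genes. Members had more windows per gene, 58 for 32 genes against 35116 for 27305 genes. Per window the stricter form was in 17.2% for members against 1.40% for all, and the consensus in 27.6% against 9.96%. Among the genes that NF-kB is known to induce, 11 of 16 held the consensus, and among core components 4 of 16. Shown here are 3 induced genes with matches, the inhibitor NFKBIA, the ubiquitin editor TNFAIP3 and the activation marker CD83 (its more downstream window). BCL10 and MALT1, the adaptor pair discussed next, follow. Capitals mark the bases of a consensus match on either strand, and matches that overlap are joined.
NFKBIA, chr14:35404750-35404999, minus strand: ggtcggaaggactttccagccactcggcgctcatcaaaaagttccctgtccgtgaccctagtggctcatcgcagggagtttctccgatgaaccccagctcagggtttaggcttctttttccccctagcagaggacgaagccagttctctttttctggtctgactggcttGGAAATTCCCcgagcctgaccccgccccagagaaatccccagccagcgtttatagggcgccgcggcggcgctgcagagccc
TNFAIP3, chr6:137867009-137867258, plus strand: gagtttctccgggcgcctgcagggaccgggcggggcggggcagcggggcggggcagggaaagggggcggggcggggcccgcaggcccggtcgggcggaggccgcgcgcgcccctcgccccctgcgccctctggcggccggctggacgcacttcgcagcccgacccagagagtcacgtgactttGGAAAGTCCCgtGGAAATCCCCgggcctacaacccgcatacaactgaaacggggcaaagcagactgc
CD83, chr6:14117522-14117771, plus strand: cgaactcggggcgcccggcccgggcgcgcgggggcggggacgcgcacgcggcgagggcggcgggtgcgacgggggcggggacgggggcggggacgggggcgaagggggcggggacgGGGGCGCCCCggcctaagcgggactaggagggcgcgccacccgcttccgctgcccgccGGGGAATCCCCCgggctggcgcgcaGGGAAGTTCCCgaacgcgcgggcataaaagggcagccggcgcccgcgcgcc
BCL10, chr1:85276633-85276882, minus strand: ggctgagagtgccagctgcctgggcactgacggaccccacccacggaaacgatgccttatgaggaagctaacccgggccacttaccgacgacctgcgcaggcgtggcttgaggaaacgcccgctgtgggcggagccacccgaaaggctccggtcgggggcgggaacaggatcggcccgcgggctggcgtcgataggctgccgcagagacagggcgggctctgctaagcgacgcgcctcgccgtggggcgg
MALT1, chr18:58671215-58671464, plus strand: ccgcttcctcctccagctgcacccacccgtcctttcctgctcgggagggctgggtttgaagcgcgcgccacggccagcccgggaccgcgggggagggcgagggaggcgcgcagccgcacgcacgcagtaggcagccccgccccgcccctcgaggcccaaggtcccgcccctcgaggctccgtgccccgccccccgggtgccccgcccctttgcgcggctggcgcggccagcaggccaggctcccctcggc
The NFKBIA window holds 1 match, which begins 81 bases before the start. The TNFAIP3 window holds 2, which begin 67 and 55 bases before it. The BCL10 and MALT1 windows hold none of these letters. NFKBIA and CD83 had lower means in TAZ libraries and TNFAIP3 a higher one, so these 3 genes with matches did not all differ in the same direction. BCL3 and CHUK, whose windows also held no match, had lower means in TAZ libraries, and BCL10 and MALT1 higher ones. None of these genes passed the test.

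BCL10 and MALT1 act together in carrying antigen receptor signals to the IkB kinases. BCL10 (ENSG00000142867.8, chromosome 1, 85731931 to 85742773, minus strand, hg19) had 14.6, 16.9 and 14.9 scaled TPM in TAZ libraries 1, 2 and 3, against 8.52, 8.95 and 6.53 in empty vector libraries 1, 2 and 3. Every TAZ library lay above every empty vector library, and the log2 difference was 0.88 ± 0.17 (limma adjusted p = 0.0541). Its 1 annotated transcript carried all of the value, so no choice between isoforms enters it. With upper-quartile scaling the difference was 0.94 (adjusted p = 0.0361), and with assigned bases in place of TPM it was 0.90 (adjusted p = 0.0434), and it passed in these 2 of 16 other settings. Its adjusted p was 0.168 without a filter on low values, 0.147 with the replicate number as a block, and 0.0631 to 0.238 with 1 library left out. MALT1 (ENSG00000172175.8, chromosome 18, 56338618 to 56417371, plus strand), a protease that binds BCL10, had 86.3, 102 and 102 scaled TPM in TAZ libraries and 64.96, 71.0 and 64.8 in empty vector libraries. Its groups did not overlap either (log2 difference 0.53 ± 0.16, limma adjusted p = 0.158), and genes on the other strand overlap its locus, so its reads are uncertain unless counting used strand.

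The TRAF adaptors link receptors to the kinases. TANK, which binds TRAF proteins, had 13.1, 12.3 and 17.5 scaled TPM in TAZ libraries and 11.0, 10.6 and 11.8 in empty vector libraries, without overlap (0.32 ± 0.18, limma adjusted p = 0.402). Without TAZ library 3 the difference was 0.17 ± 0.19 (limma adjusted p = 0.764). TRAF2, which together with TRAF3 and the cIAP ligases keeps NIK low, averaged 51.3 ± 4.795 in TAZ libraries and 59.0 ± 4.54 in empty vector libraries (-0.20 ± 0.16, limma adjusted p = 0.538). TRAF1, TRAF3, TRAF5 and TRAF6 overlapped between groups, with log2 differences between -0.23 and 0.14. TRAF5 ran from 14.5 to 35.03 in TAZ libraries and from 14.9 to 39.3 in empty vector libraries, so no statement on it can be made at this spread.

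**Figure D2:**
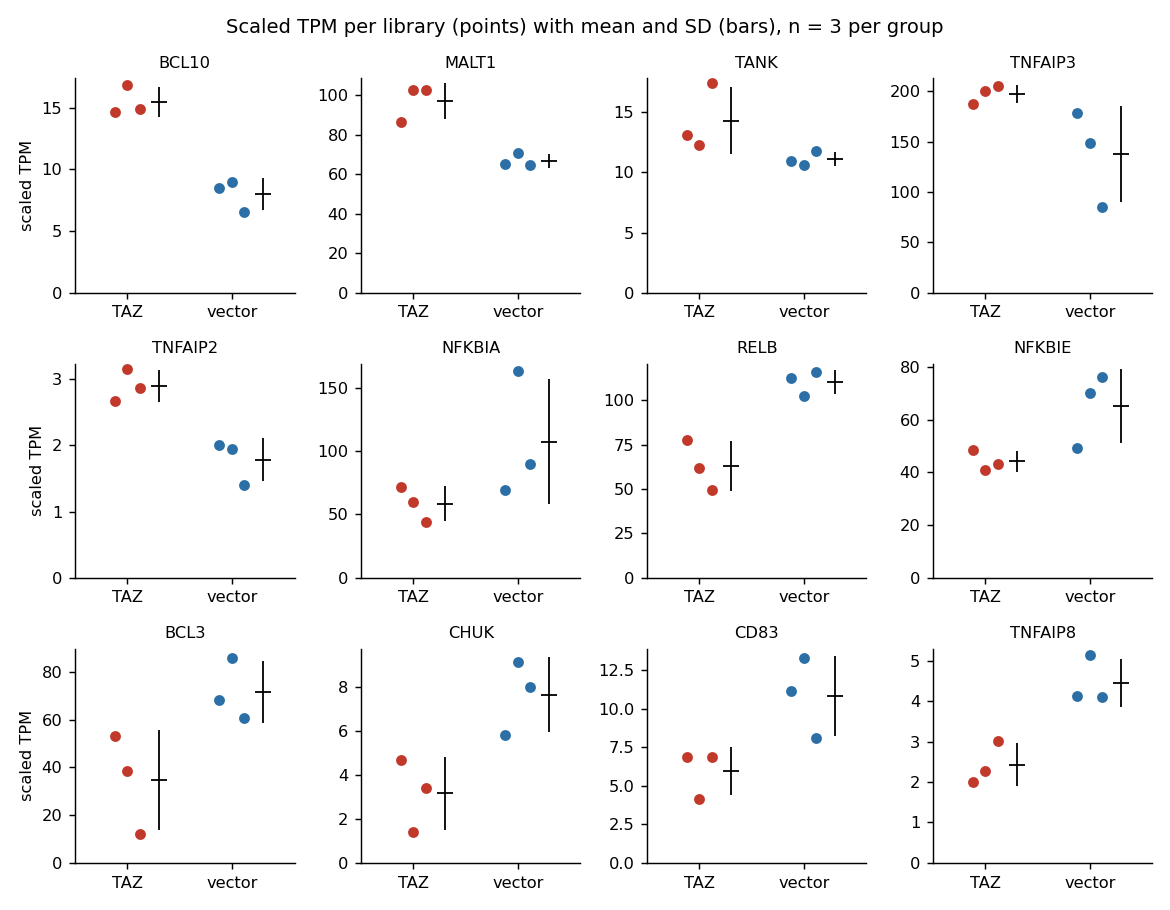
Scaled TPM of 12 NF-kB genes in each TAZ library (left, red) and each empty vector library (right, blue), with mean and SD as bars, n = 3 per group, linear axes from 0. All genes but NFKBIA show no overlap between groups. BCL10, MALT1, TANK, TNFAIP3 and TNFAIP2 are higher in TAZ libraries, and RELB, NFKBIE, BCL3, CHUK, CD83 and TNFAIP8 are lower.

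Among the Rel subunits, RELA and RELB were the most abundant. RELB (ENSG00000104856.9, chromosome 19, 45504688 to 45541452), the activating subunit of the non-canonical arm and itself an NF-kB target, had 77.7, 61.8 and 49.6 scaled TPM in TAZ libraries and 112, 102 and 116 in empty vector libraries. The groups did not overlap (log2 difference -0.82 ± 0.20, limma adjusted p = 0.104). A fragment of 775 bases, ENST00000509229.1, added 26.4 scaled TPM in empty vector library 1 and was at 0 in the other libraries. On the full transcript ENST00000221452.8 RELB had 73.8, 51.3 and 48.9 in TAZ libraries and 77.9, 97.9 and 112 in empty vector libraries. The groups did not overlap on it either, but TAZ library 1 and empty vector library 1 were close. RELA, the main subunit of the canonical arm, averaged 96.5 ± 13.8 in TAZ libraries and 104 ± 19.5 in empty vector libraries (-0.10 ± 0.21, limma adjusted p = 0.827). NFKB2, the precursor that pairs with RELB, had 32.4, 20.7 and 23.5 scaled TPM in TAZ libraries and 38.8, 30.5 and 52.4 in empty vector libraries. TAZ library 1 lay above empty vector library 2, so these groups overlapped (-0.64 ± 0.26, limma adjusted p = 0.275). NFKB1, the precursor of the canonical arm, averaged 16.0 ± 1.61 in TAZ libraries and 21.3 ± 6.59 in empty vector libraries (-0.35 ± 0.26, limma adjusted p = 0.516), and the difference was -0.16 without empty vector library 1 and -0.62 without empty vector library 3. REL was listed at 0.984, 0.0860 and 0.970 in TAZ libraries and at 0.129, 0.139 and 0.161 in empty vector libraries, so TAZ libraries 1 and 3 were higher and TAZ library 2 was not.

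All 3 IkB proteins that NF-kB induces had lower means in TAZ libraries. NFKBIE (ENSG00000146232.10, chromosome 6, 44225903 to 44233500) had 48.5, 41.0 and 43.0 scaled TPM in TAZ libraries and 49.3, 70.0 and 76.3 in empty vector libraries. The groups did not overlap, but TAZ library 1 and empty vector library 1 were almost level (log2 difference -0.53 ± 0.21, limma adjusted p = 0.259). BCL3, a nuclear IkB protein that acts as a co-activator, had 53.3, 38.4 and 12.2 in TAZ libraries and 68.4, 86.1 and 60.8 in empty vector libraries. TAZ library 3 was far below the other TAZ libraries: with all libraries the log2 difference was -1.24 ± 0.52 (limma adjusted p = 0.277), and without TAZ library 3 it was -0.64 ± 0.26 (adjusted p = 0.442). The summed TPM of BCL3 did not overlap between groups, but its leading transcript of 9 exons, ENST00000164227.5, did (exact two-sided permutation p = 0.2). On that transcript TAZ library 1, at 48.1, lay above empty vector library 3, at 46.1. NFKBIB, an inhibitor that is not induced, had 43.7, 9.89 and 30.1 in TAZ libraries and 3.15, 59.8 and 63.0 in empty vector libraries. Its difference of -0.03 ± 1.13 has no stable direction. It was -1.33 ± 0.60 without empty vector library 1 (limma adjusted p = 0.380), and 0.56, 0.61 and 0.64 without TAZ library 2, empty vector library 2 and empty vector library 3 in turn.

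NFKBIA (ENSG00000100906.6, chromosome 14, 35870717 to 35873955, minus strand, hg19), the inhibitor that closes the fastest feedback loop of the pathway, shows how the gene value depends on which transcripts StringTie filled. The gene had 71.8, 59.5 and 44.3 scaled TPM in TAZ libraries and 69.3, 163 and 89.7 in empty vector libraries, which overlap (log2 difference -0.80 ± 0.35, limma adjusted p = 0.297). Without empty vector library 2 the difference was -0.45 ± 0.28 (limma adjusted p = 0.547). Part of this lay on a fragment of 381 bases, ENST00000556664.1, which held 32.9 and 24.7 scaled TPM in TAZ libraries 1 and 2 and 76.0 in empty vector library 2, and 0 in the other 3. The full transcript of 6 exons, ENST00000216797.5, had 38.9, 32.0 and 43.3 scaled TPM in TAZ libraries and 55.4, 80.2 and 85.3 in empty vector libraries. On this transcript the groups did not overlap (p = 0.1 in an exact two-sided permutation test, which cannot go lower with 3 and 3 libraries). When the bases assigned to all transcripts were summed in place of TPM, an alternative chosen after the data were seen, NFKBIA held 37.5, 31.4 and 35.1 bases per megabase in TAZ libraries and 52.4, 81.5 and 69.1 in empty vector libraries. The log2 difference on that measure was -0.93 ± 0.20 (limma adjusted p = 0.0600).

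**Figure D3:**
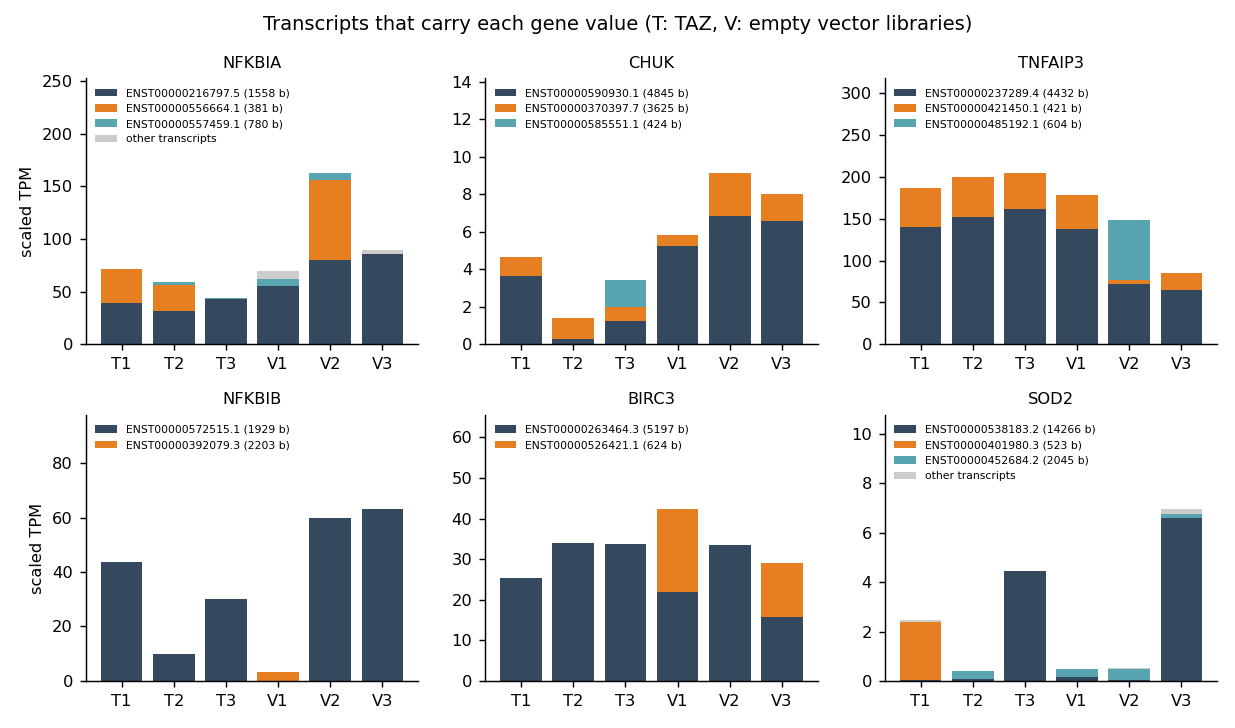
Scaled TPM of the transcripts of 6 NF-kB genes, stacked, in TAZ libraries 1 to 3 (T1 to T3, left) and empty vector libraries 1 to 3 (V1 to V3, right), with transcript lengths in bases. Full NFKBIA (dark) is lower in each TAZ library, and the CHUK difference lies on the 3-exon transcript ENST00000590930.1 (dark). NFKBIB and BIRC3 vary in transcripts among empty vector libraries only, and SOD2 within both groups. The total of NFKBIB is also low in V1. Part of TNFAIP3 in V2 lies on a fragment of 604 bases.

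Of the kinases, CHUK (IKK-alpha, ENSG00000213341.6, chromosome 10, 101948055 to 101989376, minus strand) differed most. It had 4.67, 1.39 and 3.41 scaled TPM in TAZ libraries and 5.81, 9.14 and 7.98 in empty vector libraries, without overlap (log2 difference -1.13 ± 0.35, limma adjusted p = 0.176). The transcript behind it was ENST00000590930.1, which has 3 exons at the 3′ end of the locus (101948124 to 101955699) and held 3.64, 0.284 and 1.21 scaled TPM in TAZ libraries and 5.25, 6.82 and 6.58 in empty vector libraries. The transcript of 21 exons that spans the locus, ENST00000370397.7, had 1.03, 1.10 and 0.778 in TAZ libraries and 0.566, 2.32 and 1.41 in empty vector libraries, which overlap. IKBKB (IKK-beta) averaged 7.96 ± 1.37 in TAZ libraries and 6.92 ± 2.04 in empty vector libraries, and IKBKG, the scaffold NEMO, 6.32 ± 1.33 in TAZ libraries and 5.93 ± 2.78 in empty vector libraries. IKBKG has a near-identical pseudogene, IKBKGP1, so its reads may be split between them. IKBKE, an inducible relative of the IkB kinases, averaged 25.9 ± 2.92 in TAZ libraries and 32.3 ± 7.72 in empty vector libraries. MAP3K14, the kinase NIK, had 9.57, 2.48 and 7.49 in TAZ libraries and 20.3, 3.21 and 1.94 in empty vector libraries, and 1 empty vector library held most of that group's value. All 4 overlapped between groups, with adjusted p between 0.530 and 0.967 (limma).

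TNFAIP3 (ENSG00000118503.10, chromosome 6, 138188351 to 138204449, plus strand), the ubiquitin-editing enzyme that shuts off NF-kB signalling and is induced by it, had the highest mean TPM of the 35 genes in both groups. It reached 187, 200.4 and 205 scaled TPM in TAZ libraries and 179, 149 and 85.5 in empty vector libraries. All TAZ libraries lay above all empty vector libraries, but empty vector library 1 came close and library 3 was far lower (log2 difference 0.58 ± 0.29, limma adjusted p = 0.343). Without empty vector library 3 the difference was 0.27 ± 0.17 (limma adjusted p = 0.383). Part of the level in empty vector library 2 lay on a fragment of 604 bases, ENST00000485192.1, at 72.5 scaled TPM there and 0 in the other libraries. The full transcript ENST00000237289.4 had 140.5, 152 and 162 scaled TPM in TAZ libraries and 138, 72.5 and 65.3 in empty vector libraries, so empty vector libraries 2 and 3 were both low on it and library 1 was near the TAZ libraries. In summed bases per megabase TNFAIP3 had 329, 353 and 377 in TAZ libraries and 322, 188 and 152 in empty vector libraries (0.75 ± 0.28, limma adjusted p = 0.229). Its partner TNIP1, also induced, averaged 28.1 ± 4.35 in TAZ libraries and 36.3 ± 5.88 in empty vector libraries, a difference of -0.35 ± 0.20 (limma adjusted p = 0.398). CYLD, a deubiquitinase often lost in myeloma, averaged 9.73 ± 1.03 and 8.45 ± 0.971 in TAZ and empty vector libraries. TNIP2 had 69.6, 61.8 and 60.6 in TAZ libraries and 14.7, 65.3 and 81.3 in empty vector libraries. Empty vector library 1 was low for TNIP2 as it was for NFKBIB, and without it the difference of 0.56 ± 0.60 became -0.19 ± 0.19 (limma adjusted p = 0.666), while it was 0.85 and 1.00 without empty vector libraries 2 and 3 in turn.

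The survival proteins overlapped between groups. BIRC3 (cIAP2), an induced ligase, had 25.4, 33.8 and 33.6 scaled TPM in TAZ libraries and 42.2, 33.5 and 29.1 in empty vector libraries. A transcript of 624 bases, ENST00000526421.1, added 20.3 and 13.4 scaled TPM in empty vector libraries 1 and 3 and was at 0 in the other libraries. On the full transcript ENST00000263464.3 BIRC3 averaged 31.0 ± 4.82 in TAZ libraries and 23.7 ± 9.02 in empty vector libraries (exact two-sided permutation p = 0.2). BIRC2 (cIAP1), which is not induced, averaged 14.1 ± 3.31 in TAZ libraries and 11.2 ± 1.40 in empty vector libraries. CFLAR, the caspase inhibitor FLIP, had 16.3, 14.8 and 27.7 in TAZ libraries and 13.6, 14.9 and 14.5 in empty vector libraries, so TAZ library 3 stood far above and TAZ library 2 within the empty vector range. Without TAZ library 3 its difference of 0.38 ± 0.25 became 0.10 ± 0.19 (limma adjusted p = 0.860). The share of CFLAR TPM on its leading transcript ENST00000423241.2 was 49.8%, 59.0% and 17.6% in TAZ libraries and 60.5%, 62.2% and 70.9% in empty vector libraries. That share and the one of TNFAIP8 were the 2 of 34 that did not overlap between groups (exact two-sided permutation p = 0.1 for each, the smallest possible and not adjusted). Members with all of their TPM on 1 transcript in every library are among the 34 and could not separate. The same count over all genes was not made, so nothing is drawn from these 2.

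The effector genes went both ways. CD83 (ENSG00000112149.5, chromosome 6, 14117872 to 14137149), a surface protein of activated B and dendritic cells, had 6.86, 4.17 and 6.86 scaled TPM in TAZ libraries and 11.1, 13.3 and 8.08 in empty vector libraries, without overlap (log2 difference -0.77 ± 0.26, limma adjusted p = 0.202). Its single annotated transcript carried all of the value. TNFAIP8, a regulator of apoptosis, had 2.00, 2.27 and 3.02 in TAZ libraries and 4.13, 5.13 and 4.09 in empty vector libraries (-0.67 ± 0.19, limma adjusted p = 0.144). The difference lay on ENST00000513374.1, of 1385 bases, at 1.54 ± 0.1302 in TAZ libraries and 3.804 ± 0.404 in empty vector libraries. The transcript of 8681 bases, ENST00000504771.2, averaged 0.893 ± 0.546 in TAZ libraries and 0.648 ± 0.434 in empty vector libraries, and in summed bases TNFAIP8 differed by -0.14 ± 0.34. TNFAIP2, known as a TNF-induced gene of endothelium, had 2.67, 3.15 and 2.87 in TAZ libraries and 2.01, 1.95 and 1.41 in empty vector libraries (0.49 ± 0.18, limma adjusted p = 0.234). SOD2, the mitochondrial superoxide dismutase, was listed at 2.46, 0.3997 and 4.45 in TAZ libraries and at 0.476, 0.541 and 6.94 in empty vector libraries, and 3 different transcripts led in different libraries. Genes on the other strand overlap the SOD2 locus, and its level is uncertain here. CCL20 was listed at 0.272 in TAZ library 2 and at 0 in the other 5 libraries, and CCL22 did not exceed 0.0524 in any library, so neither chemokine was measurable.

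Set against each other, 18 genes that NF-kB is known to induce and 17 core components that it is not mainly known to induce were then described apart. The division follows textbook knowledge; IKBKE and CYLD, placed among core components, are also inducible. Of the 15 induced targets tested, 10 had a log2 difference below 0, and the median was -0.35. Of the 17 core components, 11 were above 0, and the median was 0.14. Over all tested genes 45.2% were above 0 and the median was -0.05. In each library, as the median deviation from the empty vector mean, induced targets stood at -0.38, -0.63 and -0.43 in TAZ libraries and at -0.03, 0.09 and -0.16 in empty vector libraries. Core components stood at 0.217, 0.115 and 0.166 in TAZ libraries and at -0.01, 0.14 and -0.16 in empty vector libraries. These are medians over genes that did not pass singly, and the empty vector values are centred on their own mean. For the induced targets all 3 TAZ medians lay below the lowest empty vector median, while 5 of the 15 genes had a log2 difference above 0, and the medians of the core components overlapped. Without scaling between libraries the median of all tested genes moved to 0.17. Relative to the median of all genes, induced targets stood at -0.30 with scaling and -0.27 without, and core components at 0.19 with and without. Within the induced targets the direction was not shared, since TNFAIP3 and TNFAIP2 lay above and RELB, NFKBIE, BCL3, CD83 and TNFAIP8 below without overlap. Groups did not overlap in 7 of 15 induced targets (46.7%) and 4 of 17 core components (23.5%), against 24.9% of all tested genes.

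**Figure D4:**
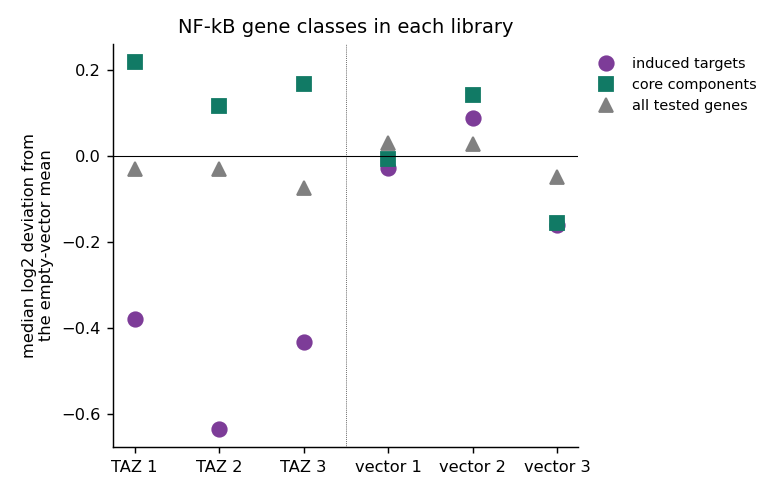
Median over genes of the log2 deviation from the empty vector mean, for 15 induced targets (circles), 17 core components (squares) and all tested genes (triangles), in 3 TAZ libraries (left) and 3 empty vector libraries (right). Empty vector values lie near 0 by construction. Induced targets lie between -0.63 and -0.38 in the TAZ libraries, and core components between 0.115 and 0.217.

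Wider lists gave the rest of the pathway. Of 40 other signalling genes, such as receptors, TAB and IRAK proteins and linear ubiquitin ligase subunits, 37 were tested, and 0 rose and 0 fell by limma, against 2.25% and 0.964% of all tested genes. An unadjusted p below 0.05 was reached by 9 (24.3%, against 18.0% of all tested genes), and 13 did not overlap (35.1%, against 24.9%). Their median log2 difference was 0.01. The closest was NKIRAS1, an IkB-binding Ras-like protein named after its values were seen, with 4.50 ± 0.307 scaled TPM in TAZ libraries and 10.8 ± 2.89 in empty vector libraries (-1.07 ± 0.21, limma adjusted p = 0.0505). Of 45 other known targets, 23 were tested, and 4 of the remainder were listed at 0 in every library. Of the 23, 3 rose and 5 fell (limma), against 2.25% and 0.964% of all tested genes, and the median log2 difference was -0.54. An unadjusted p below 0.05 was reached by 16 of the 23 (69.6%, against 18.0% of all tested genes). In 17 (73.9%, against 24.9%) the groups did not overlap, 6 with TAZ above and 11 with TAZ below. Over all tested genes 10.1% lay above and 14.8% below.

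The 5 that fell were 3 inflammatory products and 2 regulators of B-lineage growth. VCAM1, an adhesion molecule, had 1.31 ± 0.0938 scaled TPM in TAZ libraries and 8.05 ± 1.31 in empty vector libraries (log2 difference -1.96 ± 0.18, limma adjusted p = 0.00267). The chemokine CXCL10 had 3.15 ± 0.138 in TAZ libraries and 20.3 ± 5.94 in empty vector libraries, and the chemokine CCL4 0.439 ± 0.146 and 6.51 ± 1.81. CCND2, a D-type cyclin, had 107 ± 11.0 in TAZ libraries and 305 ± 54.1 in empty vector libraries. IRF4, a plasma cell transcription factor that stands also among the plasma cell markers, had 200.3 ± 19.2 in TAZ libraries and 443 ± 89.9 in empty vector libraries. The 3 that rose were the transcription factor IRF1, the peptide transporter subunit TAP1 and the cytokine subunit EBI3. IRF1 and TAP1 are known as interferon-induced genes too, and so is CXCL10, which fell. TAP1 had 438 ± 32.3 scaled TPM in TAZ libraries and 95.2 ± 9.004 in empty vector libraries (2.19 ± 0.16, limma adjusted p = 0.00122). EBI3 had 3.19 ± 0.546 in TAZ libraries and 0.532 ± 0.508 in empty vector libraries (1.49 ± 0.28, limma adjusted p = 0.0430), and it passed in 6 of 15 other settings. IRF1 had 79.3 ± 6.87 in TAZ libraries and 5.998 ± 0.321 in empty vector libraries. VCAM1, CXCL10, CCL4, IRF1 and TAP1 passed in every other setting in which they were tested, CCND2 in 12 of 16 and IRF4 in 8 of 16. The next 4 by adjusted p, which did not pass and were named after their values were seen, lay on both sides without overlap. The cytokine IL10 had 3.63 ± 1.39 scaled TPM in TAZ libraries and 0.778 ± 0.296 in empty vector libraries (1.35 ± 0.29, limma adjusted p = 0.0691). The survival protein BCL2L1, the adhesion molecule ICAM1 and the cytokine LTA lay below in TAZ libraries (limma adjusted p = 0.0772, 0.0968 and 0.0995).

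**Figure D5:**
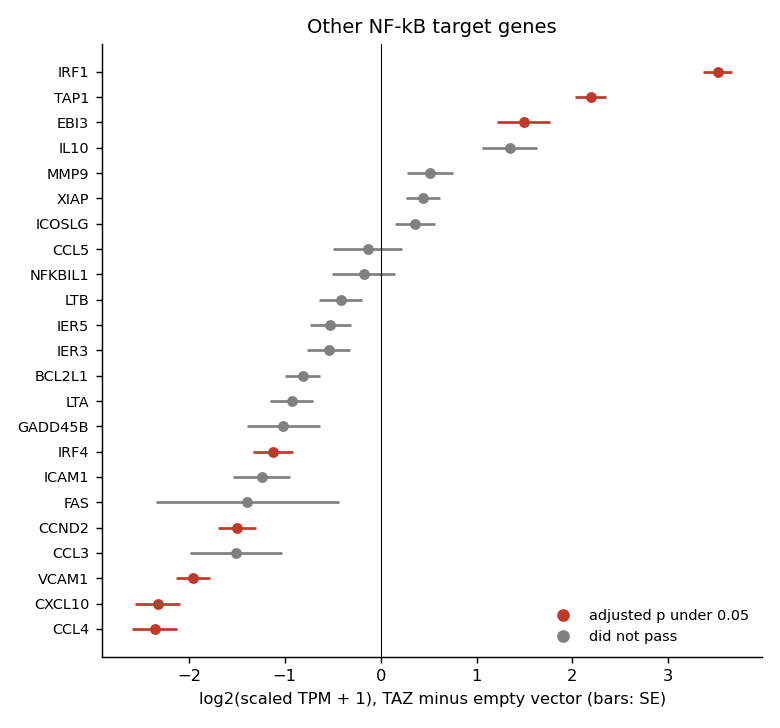
Log2 difference of scaled TPM + 1 between TAZ and empty vector libraries for 23 other NF-kB target genes (points, bars are SE). Red points passed an adjusted p of 0.05: IRF1, TAP1 and EBI3 were higher and IRF4, CCND2, VCAM1, CXCL10 and CCL4 lower in TAZ libraries.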

How the data were processed

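Alignment used STAR 2.3.0 and Bowtie2 2.0.0 on build hg19, per the submitters' processing notes. Per the file headers, StringTie 1.3.3b estimated a supplied annotation in each of the 6 libraries separately. The deposited TPM, FPKM and coverage values were read per transcript and summed per gene. The recorded command sets no strand option, and the annotation release is not stated.

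TPM was scaled by the median of ratios over 28148 genes above 0 in every library. The 19390 genes averaging 1 TPM or more entered a limma fit (version 3.58.1, R 4.3.3) of log2(scaled TPM + 1) (eBayes with trend and robust, no block), with Benjamini-Hochberg adjustment over all tested genes and a threshold of 0.05. Summed bases are coverage times length per megabase of aligned sequence. No counts were used. Alternatives changed the scaling, pseudocount, filter, unit, variance model and block, and left out each library.

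Members and lists were chosen with earlier results of these data known. Full values were given for members that passed or did not overlap between groups, up to 12, and for NFKBIA and others chosen after their values were seen. Of the wider lists, genes that passed were named; NKIRAS1, IL10, ICAM1, LTA and BCL2L1 were added after their values were seen. The TPM files hold no read counts, so no counting intervals were given; total aligned bases were recovered from the ratio of coverage to FPKM. Some items are not reported here.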

Additional observations from a re-analysis of the deposited data

How the results depend on the processing

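Of 16 other settings, summed bases was added after the data were seen. NF-kB members called stayed at 0 except for 1, BCL10, with upper-quartile scaling and with summed bases. All genes called numbered 623, against 352 without a filter and 278 to 774 with 1 library left out (278 without TAZ library 2, 331 without TAZ library 3, 410 without empty vector library 1, 349 without empty vector library 2). They split into 436 higher and 187 lower, and 533 and 85 without scaling. Other signalling genes called numbered 0, against 1 with a pseudocount of 0.1 or 0.5, 2 with summed bases and 0 to 2 with 1 library left out (2 without empty vector library 3). Other targets called numbered 8, against 5 with a minimum of 5 TPM and 5 to 9 with 1 library left out (5 without TAZ library 2, TAZ library 3 or empty vector library 2). At the minimum of 5 TPM, VCAM1, CCL4 and EBI3 were not tested. Members without overlap numbered 11, against 11 to 17 with 1 library left out (17 without TAZ library 1, where 41.6% of all genes did not overlap). The induced median of -0.35 was -0.10 without scaling, -0.53 with a minimum of 5 TPM and -0.49 to -0.31 with 1 library left out. At that minimum TRAF1, SOD2, TNFAIP2 and TNFAIP8 were not tested. The core median of 0.14 was 0.36 without scaling and 0.0290 to 0.29 with 1 library left out (0.0290 without empty vector library 3 and 0.29 without empty vector library 2). The cause of the other changes was not tested.

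With the replicate number as a block, 236 genes, 0 members and 5 other targets were called. Same-numbered libraries correlated at 0.0040, -0.0244 and -0.0549 in their deviations, so no pairing by number was seen. With 3 libraries a group this cannot decide whether same-numbered libraries were handled together.

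With 3 libraries a group the median SE of a log2 difference was 0.24. TPM carries no read counts, so counting error at low levels is not known.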
